A study of Mus musculus with 10 samples.

Results

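A set of 10 genes that mark plasma cells, the antibody-secreting end stage of the B cell lineage, were followed in bone of aged and young mice. The members were Jchain, Mzb1, Derl3, Tnfrsf17, Tnfrsf13b, Sdc1, Prdm1, Irf4, Xbp1 and Pou2af1, chosen by name, and each had 1 row among the 38962 genes of the count table. Femurs of 5 aged male C57BL/6J mice (22 months) and 5 young male C57BL/6J mice (2 months) were emptied of marrow by flushing and ground, and 1 RNA library was made from each mouse, none of which had another treatment. The aged mice came from the colony of the National Institute of Aging and the young mice from the Jackson Laboratory, so age and supplier cannot be told apart. The libraries held 31788232 to 45075335 counts in aged mice (median 43800007) and 33447009 to 40395050 counts in young mice (median 37345752).

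A B cell that becomes a plasma cell turns on the transcription factors IRF4, BLIMP1 (the product of Prdm1) and XBP1, shuts down PAX5 and the B cell programme, and enlarges its endoplasmic reticulum (ER) to secrete antibody. Long-lived plasma cells reside in bone marrow, where stromal CXCL12 holds them and the cytokine APRIL, bound by the receptor BCMA, keeps them alive. Several of the members are used by other cells as well: syndecan-1 (Sdc1) by epithelial and mesenchymal cells, Irf4 and Prdm1 by T cells and myeloid cells, Xbp1 by secretory cells in general, and Pou2af1 by the whole B lineage.

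The members did not move as a set. Jchain rose about 7-fold and Derl3 about 2-fold in aged bone, Sdc1 and Pou2af1 fell, and Irf4, Xbp1, Prdm1, Tnfrsf13b and Mzb1 did not pass the test. Of the 10 members, 9 passed the filter on low counts and entered the quasi-likelihood test of edgeR, in which p-values were adjusted over all 22088 genes tested (Benjamini-Hochberg). Tnfrsf17 was too low to be tested. At an adjusted p no greater than 0.05, 2 of these members were called higher and 2 lower, against 3.68% of all tested genes called higher and 3.61% called lower (7.29% in either direction). The 4 called members also differed by at least 1.5-fold, and 5.36% of all tested genes met both criteria. Jchain was higher and Sdc1 lower with no overlap between the age groups, a separation seen in 7.8% of all tested genes (3.68% higher and 4.12% lower). Levels are given as CPM, read counts relative to library sizes that were scaled by the trimmed mean of M values (TMM), log2FC is the log2 fold change of aged over young bone, and standard errors (SE) are on the log2 scale. In RNA of whole bone, fewer cells of a type and less RNA per cell cannot be told apart.

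**Figure D1:**
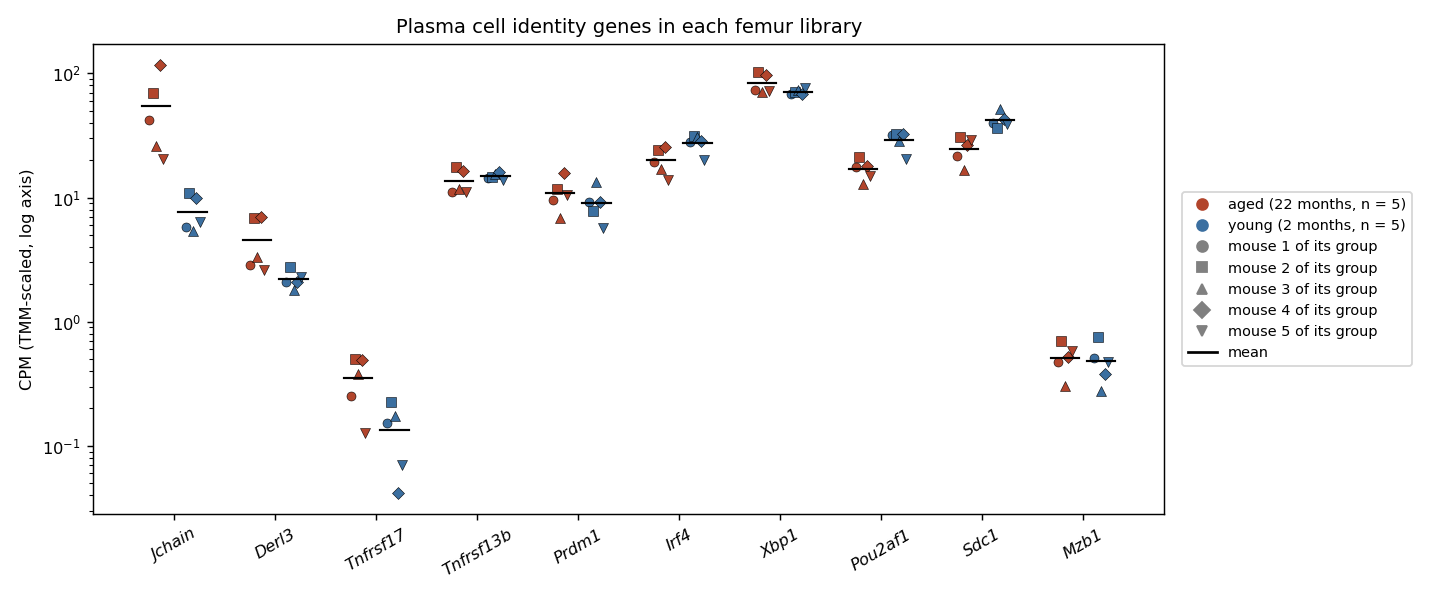
CPM of each member (log axis) in the 5 aged (red, left) and 5 young (blue, right) libraries, 1 point per mouse with the mean as a bar. Jchain is the member whose aged libraries, at 20.3 to 116 CPM, all lie above the young ones, at 5.34 to 10.8 CPM, and Sdc1 the one whose aged libraries all lie below.

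Jchain encodes the joining chain that links IgM and IgA into polymers (ENSMUSG00000067149.6, chromosome 5 from 88519809 to 88527891 on GRCm38). It stood at 42.4, 69.4, 25.9, 116 and 20.3 CPM in aged mice 1 to 5, against 5.77, 10.8, 5.34, 9.96 and 6.34 CPM in young mice 1 to 5. Every aged mouse was above every young mouse, and the aged mice differed among themselves by 5.73-fold while the young mice differed by 2.03-fold. The mean was 54.8 ± 39.2 CPM in aged and 7.65 ± 2.55 CPM in young bone (SD, n = 5 each; log2FC 2.84, SE 0.46, edgeR adjusted p = 0.00517). This was the 255th smallest p of the 22088 genes. Without aged 4 the increase was 5.16-fold, and without both aged 2 and aged 4, left out together after the values were seen, it was 3.85-fold (edgeR adjusted p = 0.00664). The adjusted p ranged from 2.8e-06 with DESeq2 to 0.0531 with the mean level of the B cell receptor markers as a covariate, the only alternative run in which the call ended. In that fit the increase was 14.9-fold (log2FC 3.89) and its SE was 0.67.

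Derl3 encodes derlin-3, a protein of the ER membrane that takes part in the disposal of misfolded secretory proteins (ENSMUSG00000009092.5, chromosome 10 from 75893413 to 75895941). Its levels were 2.88, 6.90, 3.34, 7.01 and 2.61 CPM in aged mice 1 to 5, against 2.104, 2.75, 1.80, 2.09 and 2.31 CPM in young mice 1 to 5. Aged 2 and aged 4 stood apart above the other 3 aged mice, and aged 5 lay below young 2, so the groups overlapped. The mean was 4.55 ± 2.21 CPM in aged and 2.21 ± 0.350 CPM in young bone (SD, n = 5 each; log2FC 1.05, SE 0.29, edgeR adjusted p = 0.0433). The call was close to the threshold: it ended in 7 of the 10 fits that left out 1 library, without aged 2 or 4 or any of the young mice (edgeR adjusted p = 0.0665 to 0.107), under scaling by library totals (0.121) and with limma-voom (0.0756). Without aged 2 and aged 4 together, left out after the values were seen, the difference was 1.33-fold (edgeR adjusted p = 0.201). The related genes Derl1 and Derl2, which most cells express, had log2FC values of -0.02 each and did not pass (edgeR adjusted p = 0.919 and 0.928).

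The promoter windows of Derl3 and Pou2af1 are shown because they are the called members with a match to an element of the secretory stress response, and that of Jchain because it changed most and had no match. The window of Sdc1, also called and also without a match, is not printed. RefSeq windows on GRCm38.p6, from 250 bases before to 50 bases after the start of the gene, were found for 9 of the 10 members. The motifs searched, on both strands, were 5: the octamer ATGCAAAT read by OCT factors with the product of Pou2af1, the unfolded protein response element TGACGTGG, the ER stress element (CCAAT and CCACG separated by 9 bases), the ETS-IRF composite element (GGAA and GAAA separated by 2 bases) and the interferon-stimulated response element (GAAA and GAAA separated by 2 bases). The last 2 can overlap each other. The capitals mark matches.
Derl3 (chr10:75893148-75893447, plus strand): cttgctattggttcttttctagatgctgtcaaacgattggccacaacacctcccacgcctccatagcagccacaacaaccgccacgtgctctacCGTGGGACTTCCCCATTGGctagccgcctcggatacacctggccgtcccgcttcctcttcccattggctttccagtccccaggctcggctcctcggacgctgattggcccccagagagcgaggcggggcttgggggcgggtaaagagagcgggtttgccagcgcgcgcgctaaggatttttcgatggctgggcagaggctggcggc
Pou2af1 (chr9:51213440-51213739, plus strand): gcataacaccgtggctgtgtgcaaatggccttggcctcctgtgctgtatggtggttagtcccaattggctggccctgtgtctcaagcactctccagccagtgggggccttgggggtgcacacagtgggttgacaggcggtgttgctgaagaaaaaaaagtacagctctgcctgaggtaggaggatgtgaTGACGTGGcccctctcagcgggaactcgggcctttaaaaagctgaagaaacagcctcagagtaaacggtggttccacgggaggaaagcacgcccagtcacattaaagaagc
Jchain (chr5:88527848-88528147, minus strand): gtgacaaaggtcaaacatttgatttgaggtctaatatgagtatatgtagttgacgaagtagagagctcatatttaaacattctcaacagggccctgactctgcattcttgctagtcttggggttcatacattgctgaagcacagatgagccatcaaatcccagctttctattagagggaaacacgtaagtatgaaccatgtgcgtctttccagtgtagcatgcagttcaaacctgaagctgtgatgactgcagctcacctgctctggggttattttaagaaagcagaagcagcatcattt

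The Derl3 window held 1 ER stress element, on the reverse strand from 156 to 138 bases before the start, a motif found in 0.119% of the 32851 mouse windows of this length. The Pou2af1 window held 1 unfolded protein response element, from 61 to 54 bases before the start, found in 0.676% of windows. The Tnfrsf17 window held 1 interferon-stimulated response element on the reverse strand (3.44% of windows), and the other 6 windows matched none of the 5 motifs (octamer in 1.74% and ETS-IRF composite element in 2.72% of windows). A match of letters is a description of the window and no binding was measured.

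Mzb1 encodes an ER protein of marginal zone B cells and plasma cells that helps assemble and secrete antibody (ENSMUSG00000024353.5). It was thinly counted, with 17, 35, 8, 22 and 23 reads in aged mice 1 to 5 and 20, 30, 8, 18 and 20 reads in young mice 1 to 5. The levels were 0.515 ± 0.145 CPM in aged and 0.479 ± 0.180 CPM in young bone (SD, n = 5 each; log2FC 0.12, SE 0.31, edgeR adjusted p = 0.836). In GENCODE vM21, whose exon length for Mzb1 equals that of the table, 695 of its 1215 exonic bases (57.2%) are shared on the same strand with exons of another gene, listed as SPATA24 (ENSMUSG00000117874.1), which was not analysed here. featureCounts by default does not assign reads that overlap exons of more than 1 gene, and the setting used is not stated in the sources read here. The counts of Mzb1 are therefore uncertain as a measure of its RNA, and 0 of the other 9 members share exonic bases with another gene in that annotation.

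Tnfrsf17 encodes BCMA, the APRIL receptor of plasma cells (ENSMUSG00000022496.5, chromosome 16 from 11313812 to 11320074). It had 9, 25, 10, 21 and 5 reads in aged mice 1 to 5 and 6, 9, 5, 2 and 3 reads in young mice 1 to 5, in all 70 reads in aged and 25 in young libraries. Aged 2 and aged 4 were the highest and aged 5 lay within the young range (0.350 ± 0.160 CPM in aged and 0.133 ± 0.0759 CPM in young bone, SD, n = 5 each). Tested with no filter on low counts it was 2.67-fold higher in aged bone and did not pass (log2FC 1.42, SE 0.50, edgeR adjusted p = 0.104).

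Tnfrsf13b encodes TACI, which binds APRIL and its relative BAFF on B cells and plasma cells (ENSMUSG00000010142.12, chromosome 11 from 61126755 to 61149372). It stood at 11.02, 17.6, 11.7, 16.3 and 11.1 CPM in aged mice 1 to 5, against 14.5, 14.7, 15.5, 16.0 and 13.9 CPM in young mice 1 to 5. Aged 2 and aged 4 were above every young mouse and the other 3 aged mice below every young mouse, and the means did not differ beyond this spread (log2FC -0.14, SE 0.14, edgeR adjusted p = 0.573). Without aged 2 and aged 4 together, left out after the values were seen, the log2FC was -0.40 (edgeR adjusted p = 0.0459, over its alternatives 0.0459 to 0.907). A lower value follows from leaving out the highest aged mice and is no further result.

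Sdc1 encodes syndecan-1, the cell surface heparan sulfate proteoglycan known as CD138 and used to sort plasma cells (ENSMUSG00000020592.14, chromosome 12 from 8771323 to 8793715). It stood at 21.5, 30.6, 16.7, 26.3 and 28.9 CPM in aged mice 1 to 5, against 40.1, 36.3, 52.1, 42.75 and 39.1 CPM in young mice 1 to 5. Every aged mouse was below every young mouse (24.8 ± 5.71 CPM in aged and 42.1 ± 6.07 CPM in young bone, SD, n = 5 each; log2FC -0.76, SE 0.16, edgeR adjusted p = 0.0118). The call held in each fit that left out 1 library (edgeR adjusted p = 0.0106 to 0.0305). It ended with the B cell receptor markers as a covariate, where the log2FC was -0.58 and its SE 0.26 (edgeR adjusted p = 0.346, over its alternatives 7.0e-04 to 0.346). Most calls over all genes ended in that fit, with 42 higher and 40 lower left of 812 and 798. Of the other syndecans, Sdc2 and Sdc4 also fell (log2FC -0.87 and -0.55, edgeR adjusted p = 0.0183 and 0.0371), and Sdc3 did not pass (log2FC -0.30, edgeR adjusted p = 0.236).

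Among the transcription factors, Pou2af1 was called and Irf4, Xbp1 and Prdm1 were not. Pou2af1 encodes OBF-1, the B cell coactivator of the OCT factors (ENSMUSG00000032053.8, chromosome 9 from 51213708 to 51240080). It stood at 17.5, 21.3, 12.75, 17.98 and 14.98 CPM in aged mice 1 to 5, against 31.9, 32.3, 28.3, 32.25 and 20.3 CPM in young mice 1 to 5. Young 5 lay below aged 2 and was the single point of overlap (16.9 ± 3.22 CPM in aged and 29.0 ± 5.14 CPM in young bone, SD, n = 5 each; log2FC -0.78, SE 0.15, edgeR adjusted p = 0.00983). The call held in each fit that left out 1 library (edgeR adjusted p = 0.00322 to 0.0327). With the B cell receptor markers as a covariate the log2 fold change was -0.14 (edgeR adjusted p = 0.760, over its alternatives 4.2e-04 to 0.760). That fit called 42 genes higher and 40 lower among all tested genes, against 812 and 798 in the main fit. For Pou2af1 the estimate itself shrank there, with an SE of 0.17 against 0.15 in the main fit. In the same fit the log2FC was 3.89 for Jchain, 1.46 for Derl3 and -0.58 for Sdc1. Its partner genes Pou2f1 and Pou2f2 (OCT1 and OCT2) did not pass (log2FC -0.15 and 0.21, edgeR adjusted p = 0.321 and 0.398).

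Irf4 encodes the interferon regulatory factor that plasma cells need to form and persist (ENSMUSG00000021356.10, chromosome 13 from 30749226 to 30766976). It stood at 19.3, 24.2, 17.0, 25.3 and 13.9 CPM in aged mice 1 to 5, against 28.2, 31.2, 30.5, 28.4 and 20.02 CPM in young mice 1 to 5. Young 5 was set apart from the other 4 young mice and lay below aged 2 and aged 4. The log2FC was -0.47 (SE 0.17, edgeR adjusted p = 0.100), and over the alternatives the adjusted p ranged from 0.0176 without aged 2 and aged 4 to 0.801 with the B cell receptor covariate, where the log2FC was 0.14. Aged 2 and aged 4, the highest aged mice here, were left out after the values were seen, which by itself lowers the aged mean. None of the other 8 IRF genes passed either, with log2FC values from -0.17 for Irf9 to 0.40 for Irf1 (2 of the 9 genes at an unadjusted p under 0.05, which 25.7% of all tested genes reached).

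Xbp1, the transcription factor gene that drives ER expansion (ENSMUSG00000020484.19, chromosome 11 from 5520659 to 5525893), was at 73.8, 103, 70.4, 96.6 and 71.7 CPM in aged mice 1 to 5, against 68.0, 70.7, 73.8, 68.8 and 75.7 CPM in young mice 1 to 5. Aged 2 and aged 4 were above all young mice and the other 3 aged mice lay among them (log2FC 0.22, SE 0.12, edgeR adjusted p = 0.262). The 5 young mice lay within 1.11-fold of each other and the aged mice within 1.47-fold. Gene counts do not separate the spliced, active form of the Xbp1 transcript from the unspliced one. Prdm1, the gene of the repressor BLIMP1 (ENSMUSG00000038151.13, chromosome 10 from 44437177 to 44528501), was at 9.65, 11.8, 6.87, 15.7 and 10.5 CPM in aged mice 1 to 5, against 9.16, 7.81, 13.45, 9.14 and 5.71 CPM in young mice 1 to 5. The groups overlapped widely (log2FC 0.27, SE 0.23, edgeR adjusted p = 0.485).

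**Figure D2:**
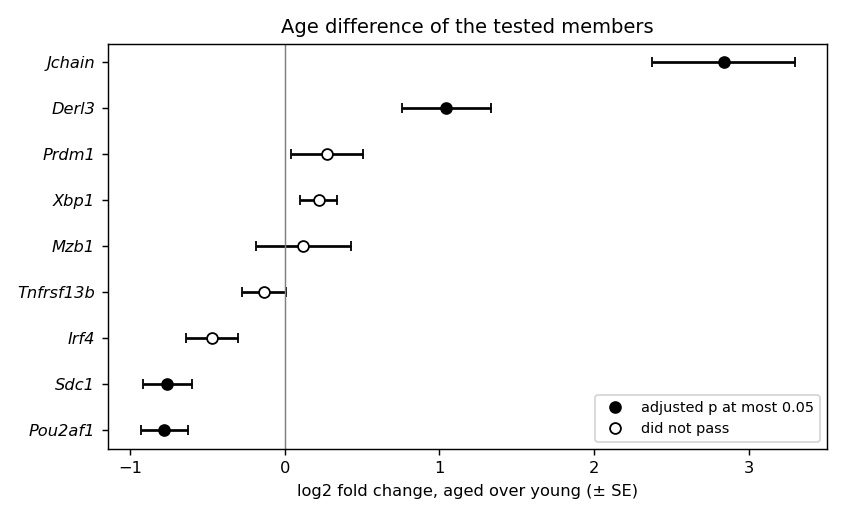
Log2 fold change, aged over young, of the 9 tested members, with the standard error as bars and filled points for an adjusted p of at most 0.05. The values run from 2.84 for Jchain and 1.05 for Derl3 to -0.76 for Sdc1 and -0.78 for Pou2af1, with the other 5 members between.

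Levels can be compared between members only per length, as CPM per kilobase of exon. On that scale Xbp1, at 25.6 ± 4.79, and Jchain, at 21.8 ± 15.6, headed the order in aged bone and did not differ beyond their spread (SD, n = 5). They were followed by Pou2af1 (6.63 ± 1.26), Sdc1 (6.51 ± 1.5), Tnfrsf13b (4.77 ± 1.11) and Irf4 (4.07 ± 0.984), of which neighbours in this order overlapped in spread while Pou2af1 was above Irf4 in all 5 aged libraries, and then by Derl3 (2.28 ± 1.11) and Prdm1 (1.95 ± 0.577). Mzb1 and Tnfrsf17 were last with 0.424 ± 0.119 and 0.429 ± 0.196. The place of Mzb1 is uncertain, because 57.2% of the exonic bases it is divided by are shared with another gene. In young bone Xbp1 led with 22.0 ± 1.004, followed by Pou2af1 (11.4 ± 2.01) and Sdc1 (11.04 ± 1.59), and Jchain stood at 3.04 ± 1.013, below Irf4 (5.64 ± 0.909) and Tnfrsf13b (5.26 ± 0.294).

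The aged mice differed from each other in a way that most members shared. Aged 2 and aged 4 were the highest 2 of the aged mice in 8 of the 10 members. Each member's deviation from the mean of its age group was compared across the 10 libraries on the log2 CPM scale (prior count of 2), as a description with no test. Pearson's r was above 0 in 35 of the 36 pairs of tested members, with a median of 0.55. It was 0.90 between Xbp1 and Tnfrsf13b, 0.88 between Xbp1 and Derl3 and 0.86 between Jchain and Derl3, but 0.17 between Jchain and Sdc1 and -0.02 between Prdm1 and Mzb1. Markers of neutrophils, a marrow cell, took 0.209%, 0.616%, 0.135%, 0.314% and 0.225% of the counts of aged mice 1 to 5, so that aged 2 and aged 4 also led there, and 0.172% to 0.347% in young mice (two-sided exact permutation test, p = 0.77, adjusted p over 9 such measures = 0.77). With the mean level of these markers as a covariate, Jchain was 5.67-fold and Derl3 1.73-fold higher in aged bone (edgeR adjusted p = 0.00472 and 0.0423).

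The members were also set against markers of cell types in the same way, with no test of a difference between members. Marrow cell markers varied with most of them: the median r over neutrophil markers was between 0.42 for Prdm1 and 0.77 for Tnfrsf13b in all 9 tested members, and that over macrophage markers between 0.58 and 0.79 in 7 of them, with 0.40 for Pou2af1 and 0.06 for Mzb1. For Jchain the median r was 0.72 over the immunoglobulin constant genes, 0.62 over macrophage, 0.60 over neutrophil and 0.57 over T cell markers, 0.50 over the B cell receptor complex and 0.02 over osteoclast markers. Sdc1 had its highest median r among the lists examined with osteoclast markers (0.82) and osteoblast markers (0.68), against 0.38 with the immunoglobulin constant genes. Prdm1 varied with macrophage (0.79) and osteoclast markers (0.72), and Pou2af1 with neutrophil markers (0.73) and the B cell receptor complex (0.71). Xbp1 and Tnfrsf13b had their highest values with neutrophil markers (0.72 and 0.77). Derl3 had a median r of 0.65 with neutrophil markers and 0.62 with the immunoglobulin constant genes. The libraries share depth and a common mix of marrow, muscle and bone RNA, and the median r with skeletal muscle markers was negative for each of the 9 members (-0.63 for Jchain to -0.21 for Sdc1). The osteoclast markers, of which 0 of 8 passed edgeR's test (2 at an unadjusted p under 0.05, and 1 lower without aged 5), summed to 321 to 1351 CPM in aged and 709 to 1882 CPM in young bone, and the 11 osteoblast markers, 5 of them lower (3 without aged 3, young 1 or young 4), to 18520 to 46030 CPM in aged and 43230 to 92030 CPM in young bone. The lower osteoblast markers were 45.5% of their list, against 3.61% of all tested genes. The part of osteoclasts or osteoblasts in the fall of Sdc1 was not tested.

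**Figure D3:**
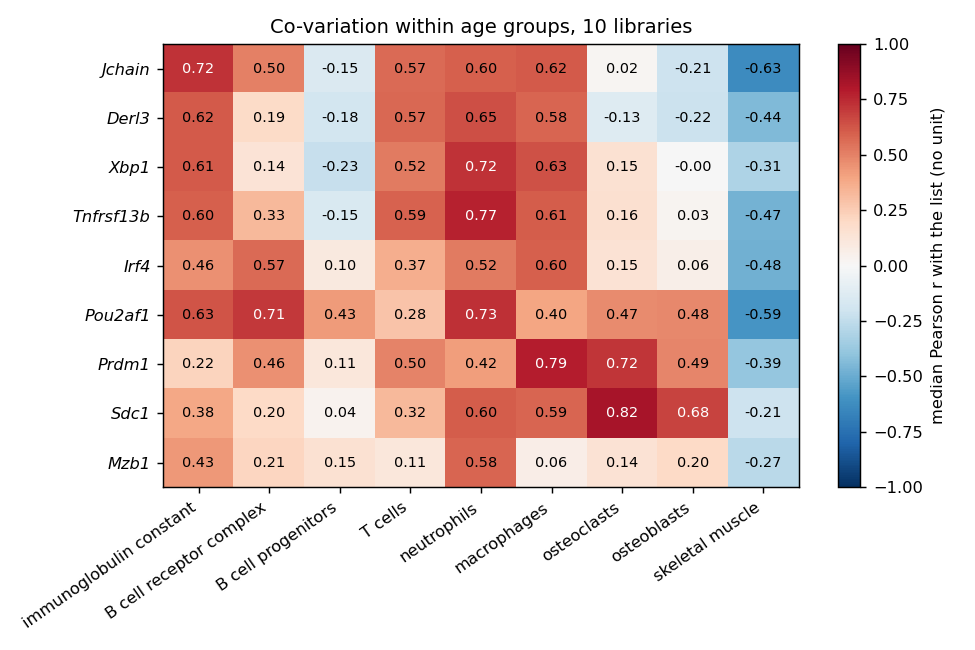
Median Pearson's r, over the genes of each list (columns), between a member (rows) and those genes across 10 libraries, after subtraction of the mean of each age group. Jchain reaches 0.72 with the immunoglobulin constant genes and Sdc1 0.82 with osteoclast markers.

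The genes closest in pattern to each member were picked as the 5 highest r among 22088 genes, a choice that by itself gives high values with 10 libraries. For Jchain they were Gm15832, Gm45137, Tlr7, Insyn2b and Gm15601 (r = 0.94 to 0.95), of which Tlr7 encodes an RNA sensor of B cells and dendritic cells. For Derl3 they were Cybc1, Lilra6, Stard5, Entpd1 and Chrnb2 (0.93 to 0.97). For Xbp1 they were Lrg1, Ighm, Txndc5, Igkv12-41 and AI467606 (0.93 to 0.96), among them 2 immunoglobulin genes and the ER folding enzyme gene Txndc5. For Sdc1 they were the cathepsin gene Ctsz, the TGF-beta receptor gene Tgfbr2, Tnfrsf26, Lrpap1 and Ncstn (0.96 to 0.97), and for Prdm1 the sheddase gene Adam17, Gm35021, the protease gene Lgmn, Tnfrsf9 and C3ar1 (0.96 to 0.97). For Pou2af1 they were Srgn, Bst1, Elovl5, Pdcd6ip and Ywhaz (0.96 to 0.98), for Irf4 Klhl6, Sirpb1a, Gm45345, Klra7 and Plscr1 (0.91 to 0.96), and for Tnfrsf13b Snf8, Siglece, Tubb2a, Aldh3b1 and Gm43428 (0.94 to 0.95). For the thinly counted Mzb1 they were Mir669n, Slc46a2, Gm37283, Gm24400 and Gm45140 (0.87 to 0.92). Immunoglobulin genes made up 0.548% of the tested genes. Of the 50 genes closest to each member they were 7 for Tnfrsf13b, 6 for Xbp1, 4 for Irf4 and 3 for Jchain. They were 2 for Pou2af1, 1 each for Derl3 and Mzb1, and 0 for Sdc1 and Prdm1.

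Several antibody genes moved with Jchain in direction. Of 11 immunoglobulin constant genes tested, 5 (45.5%) rose, 0 fell and 6 did not pass, against 3.68% of all tested genes called higher. The median log2FC was 2.25, against 0.01 over all genes. Igha, the heavy chain gene of IgA, was at 202 ± 154 CPM in aged and 24.0 ± 3.80 CPM in young bone, and Ighm, that of IgM, at 526 ± 364 and 224 ± 6.95 CPM in aged and young bone (SD, n = 5 each; edgeR adjusted p = 0.00395 and 0.0731). Constant genes may share reads with related genes. Ighg2c, Ighg3, Ighg2b and Igkc also rose (log2FC 4.23, 4.12, 3.99 and 2.61, edgeR adjusted p = 7.5e-04 to 0.0181), while Ighg1 (2.25), Ighd (0.18), Iglc1 (0.47), Iglc2 (0.43) and Iglc3 (-0.14) did not pass. With scaling by total counts alone 3 were higher.

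Ratios within a library, which do not depend on its scaling, showed how unequal the changes were. For 6 log2 ratios of counts the age groups were compared by a two-sided exact permutation test, which can give no p below 0.00794 with these 10 libraries, with Benjamini-Hochberg adjustment over the 6. Jchain per Ighm plus Igha was -3.35, -4.29, -3.71, -3.33 and -4.10 in aged mice 1 to 5, against -5.46, -4.47, -5.56, -4.69 and -5.23 in young mice 1 to 5. Every aged mouse was above every young one, by 1.33 on the log2 scale on average (exact p = 0.00794, adjusted p = 0.0159). Ighm was the larger part of that sum, at 526 CPM against 202 CPM for Igha in aged bone. Its log2FC was 1.23, against 2.84 for Jchain and 3.08 for Igha, so Jchain did not rise more than Igha. Jchain per Igkc, the kappa light chain gene, averaged -1.38 ± 0.64 in aged and -1.80 ± 0.43 in young bone (SD, n = 5 each) and did not pass (difference 0.41, exact permutation p = 0.262, adjusted p = 0.314).

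Pou2af1 per Cd79a, a part of the B cell receptor, was lower in each aged mouse (-0.34 to -0.01) than in each young mouse (0.05 to 0.24), a difference of -0.34 (exact permutation p = 0.00794, adjusted p = 0.0159). This holds for Cd79a as the divisor. Cd79a had a log2FC of -0.45, and Cd79b, of the same complex, one of -0.67, nearer to the -0.78 of Pou2af1. The ratio of Pou2af1 to Cd79b was not tested. Sdc1 per Jchain ranged from -2.14 to 0.51 in aged and from 1.74 to 3.28 in young bone, a separation that follows from the opposite and non-overlapping changes of these 2 members and is no further result. Mzb1 per Cd79a (difference 0.57, exact permutation p = 0.0873, adjusted p = 0.131) and Xbp1 per Hspa5, the gene of the ER chaperone BiP (difference 0.18, exact permutation p = 0.413, adjusted p = 0.413), did not pass.

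Few other genes of the plasma cell programme passed the test. Of 23 further plasma cell genes tested, 0 were higher and 2 (8.7%) lower in edgeR's test, against 3.68% and 3.61% of all tested genes. The median log2FC was 0.01, and 11 had an unadjusted p under 0.05 (47.8%, against 25.7% of all tested genes). The 2 lower genes were Cd93, a surface protein also of endothelium and of early B cells (69.5 ± 6.12 CPM in aged and 103 ± 7.43 CPM in young bone, SD, n = 5 each; log2FC -0.56, edgeR adjusted p = 0.00384), and Pycr1, an enzyme of proline synthesis (log2FC -0.77, edgeR adjusted p = 0.0106). Without aged 1 or aged 3, 1 gene of this list was higher, and without aged 4, 4 were lower. Of 27 genes of the unfolded protein response and ER secretion, Xbp1 included, 25 did not pass. Calls made up 3.7% of the list in each direction, near the 3.68% higher and 3.61% lower of all tested genes. An unadjusted p under 0.05 was reached by 18.5% of the list, against 25.7% of all tested genes. Sec24d, a coat protein of ER export vesicles, was lower (log2FC -0.71, edgeR adjusted p = 0.0152). Ern1, whose product IRE1 splices the Xbp1 transcript, was higher (83.6 ± 13.8 CPM in aged and 60.8 ± 6.08 CPM in young bone, SD, n = 5 each; log2FC 0.46, edgeR adjusted p = 0.0318). No gene of this list was called higher without young 2, 3, 4 or 5, or when libraries were scaled by their totals.

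Of 12 tested genes of plasma cell survival signals, 1 was higher, 2 were lower and 9 did not pass. The calls were 8.33% higher and 16.7% lower, against 3.68% and 3.61% of all tested genes. Tnfsf13, the gene of APRIL, ligand of the receptors encoded by Tnfrsf17 and Tnfrsf13b, stood at 1.69 ± 0.216 CPM in aged and 0.974 ± 0.0943 CPM in young bone with no overlap (SD, n = 5 each; log2FC 0.80, edgeR adjusted p = 0.0159). Tnfrsf13c, the BAFF receptor of B cells, and Bcl2l11, the gene of the death-promoting protein BIM, fell (log2FC -0.61 and -0.35, edgeR adjusted p = 0.00387 and 0.0330). When libraries were scaled by their totals the counts were 0 and 1, and a single gene was lower without aged 1, 3 or 5 or young 1, 2 or 4. Tnfsf13b, the gene of BAFF, and Cxcl12 had log2FC values of 0.31 and -0.34 (edgeR adjusted p = 0.231 and 0.162).

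**Figure D4:**
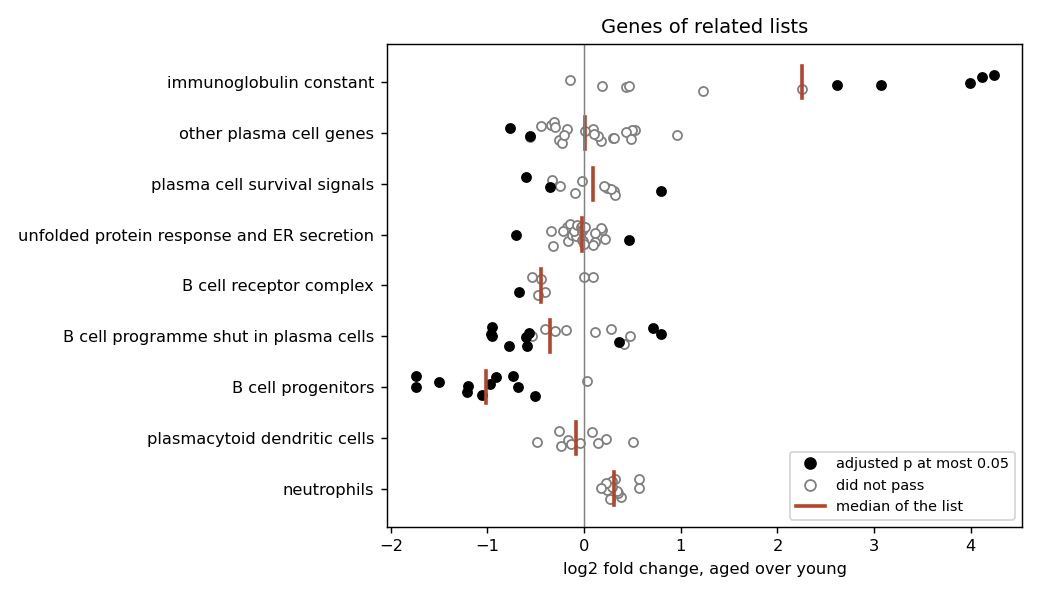
Log2 fold change, aged over young, of each tested gene of 9 related lists (1 point per gene, filled for an adjusted p of at most 0.05), with the median of the list as a red bar. The medians run from 2.25 for the immunoglobulin constant genes to -1.02 for B cell progenitors, with 0.01 for other plasma cell genes.

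Earlier stages of the B lineage went the other way from Jchain. Of 12 B cell progenitor markers, 11 fell, 0 rose and 1 did not pass, with a median log2FC of -1.02. Of all tested genes 3.61% were called lower. This list was chosen with earlier results of these data known, and most of its genes are among those the paper reports as lower in aged bone. Its count is therefore a description and no independent evidence. The recombinase genes Rag2 and Rag1 and the transcription factor gene Lef1 were among them (log2FC -1.74, -1.74 and -0.91, edgeR adjusted p = 0.00195, 0.00186 and 0.00208). Without young 1 or young 2, 7 of these markers were lower. Of 18 genes of the B cell programme that plasma cells shut, 7 (38.9%) were lower and 3 (16.7%) higher, against 3.61% and 3.68% of all tested genes. Among the lower were Spib (log2FC -0.96), Bach2 (-0.95), the antagonist of Prdm1, and Cd72 (-0.78), with edgeR adjusted p = 2.6e-04, 5.6e-04 and 0.00545. Cxcr5, a homing receptor of mature B cells, Ciita, the activator of MHC class II genes, and Bcl6 were higher (log2FC 0.72, 0.79 and 0.36, edgeR adjusted p = 0.0270, 0.0363 and 0.0432), but 0 were higher under scaling by library totals or without young 2, and 1 without aged 3, young 3 or young 4. Of 7 genes of the B cell receptor complex, Cd79b fell (log2FC -0.67, edgeR adjusted p = 0.00674) and 6 did not pass. The share lower was 14.3%, against 3.61% of all tested genes. The count lower was 2 without aged 1, aged 2 or aged 4, 4 without young 5 and 3 under scaling by library totals.

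Markers of other cells that could carry these genes were set beside the members. Plasmacytoid dendritic cells, which share some secretory genes with plasma cells, had 10 markers tested and 0 called in edgeR's test (0 at an unadjusted p under 0.05, and 1 lower without aged 2), with sums of 322 to 399 CPM in aged and 343 to 419 CPM in young bone. The largest parts of the sum were Tcf4, Runx2 and Cox6a2, at 139, 104 and 61.0 CPM in aged bone. Runx2 is also among the osteoblast markers. Siglech stood at 9.09 CPM in aged and 10.9 CPM in young bone, so the sum is no measure of these cells alone. Of 10 T cell markers 3 (30%) were higher, against 3.68% of all tested genes. They were Cd5, Cd3e and Trac (log2FC 1.11, 1.26 and 1.30, edgeR adjusted p = 0.0155, 0.0227 and 0.0342). The 10 markers summed to 42.1 to 120 CPM in aged and 27.5 to 43.5 CPM in young bone. The count of higher T cell markers was 0 without young 2, 1 without young 4 or under scaling by library totals, and 5 without aged 1. Of the 8 epithelial markers 5 were too low to be tested, 0 of the other 3 were called (2 at an unadjusted p under 0.05, and 1 higher without aged 4), and their sum was 3.98 to 9.29 CPM in aged and 2.91 to 4.05 CPM in young bone. The part of these cells in the results of the members was not tested.

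The bones held RNA of several tissues. The markers of skeletal muscle took 3.72% to 8.72% of the counts in aged and 2.73% to 6.36% in young libraries (two-sided exact permutation test, p = 0.127, adjusted p over the 9 measures = 0.19). In edgeR's test 0 genes were called among the markers of macrophages, neutrophils, red cell precursors and megakaryocytes (1 of 10, 2 of 12, 3 of 9 and 4 of 8 at an unadjusted p under 0.05). Leaving out aged 2 gave 2 and leaving out young 3 gave 1 lower red cell marker, and leaving out young 5 gave 2 higher megakaryocyte markers. Of 10 cell division genes 2 (20%) were lower, Bub1 and Ccna2, against 3.61% of all tested genes. Between 1 and 5 were lower when 1 library was left out, with 5 without aged 2.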

How the data were processed

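The deposited values are raw gene-level read counts that the authors obtained, per the paper's methods, from libraries depleted of ribosomal RNA and selected for poly-A, with Cutadapt, STAR on GRCm38.p6 and featureCounts. The submitters' processing notes name hg38, while the gene identifiers are mouse. Neither annotation release nor strand setting is stated in the sources read here. Gene lengths, also deposited, are in bases (another unit than counts). All 10 columns were mapped by title.

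The main analysis used edgeR 4.0.16 in R 4.3.3: filter on low counts (minimum count 10, minimum total 15), TMM scaling, and a robust quasi-likelihood test of aged against young with Benjamini-Hochberg adjustment, with 0.05 as the threshold of the adjusted p. Alternatives used DESeq2 1.42.0, limma 3.58.1 (voom), other scalings, filters and covariates, and left out libraries. Log2 ratios used a pseudocount of 0.5. The median SE of tested genes was 0.178. Tested on counts simulated for this comparison (21876 genes in the step), the test called 16 of 65 genes set to 1.5-fold, 46 of 66 set to 2-fold and 65 of 66 set to 4-fold, with 6 false calls. Nothing in the labels says more of the replicates than that each is a mouse.

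The members and the lists were chosen with earlier results of these data known. Named are all members, all immunoglobulin constant, syndecan and OCT genes tested, up to 3 called genes per direction and list, and the 5 genes closest in pattern to each member. Other names were chosen after their values were seen (Derl1, Derl2, Irf1, Irf9, Tnfsf13b, Cxcl12). Protein sequences were not used here.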

Additional observations from a re-analysis of the deposited data

Results flagged for a closer look

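Of 32 sets of 5 values examined (10 members and 6 ratios in each age group), 2 held a value far from the other 4, and chance gives about 1 in 20 sets. Irf4 stood at 20.02 CPM in young 5, against 28.2 CPM in the nearest young mouse. The log2 ratio of Xbp1 per Hspa5 was -0.24 in young 5, against -1.06 in the nearest young mouse.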

How the results depend on the processing

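Over all genes, 812 were higher and 798 lower in aged bone. These counts were 285 and 917 with scaling by total counts alone, which moved the median of all genes to -0.16 on the log2 scale against 0.01. They were 1545 and 1283 with DESeq2, 1661 and 1337 with the neutrophil covariate, and 42 and 40 with the B cell receptor covariate. Leaving out 1 library gave 300 to 856 higher and 386 to 830 lower genes, with 300 and 386 without young 2, 366 and 448 without young 4 and 470 and 479 without aged 3. Of the members 2 were higher and 2 lower. The higher count was 1 with scaling by total counts alone, with limma-voom and without aged 2 and aged 4 together (4 lower there, adding Irf4 and Tnfrsf13b), and 1 to 2 when 1 library was left out (2 to 3 lower). Leaving out aged 2 and aged 4, a choice made after the values were seen, by itself lowers the aged mean of most members. Both counts were 0 with the B cell receptor covariate, whose markers had a median log2 fold change of -0.45. In that fit Jchain was 14.9-fold, Derl3 2.75-fold, Sdc1 0.668-fold and Pou2af1 0.909-fold in aged over young bone, the first 2 above their main values, with larger SEs for all 4. The log2 ratio of Mzb1 per Cd79a differed by 0.41 to 0.74 with 1 library left out and passed without young 2. The other ratios kept their direction and their side of the threshold. Same-numbered mice did not deviate together (r from -0.15 to 0.17 over 5 pairs). With the replicate number as a block 957 genes were higher and 675 lower, and Irf4 was also called (log2 fold change of -0.49, edgeR adjusted p = 0.0356). At 95 reads in all for Tnfrsf17 and 201 for Mzb1, differences of these genes were not well measured at this depth.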
